A study of Mus musculus with 8 samples.

Results

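Reduced representation bisulfite sequencing (RRBS) measured 8477 autosomal protein-coding promoters in mouse testis cells labelled type A spermatogonia. Of these 8477 promoters, 234 (2.76%) carried a mean methylation level of at least 70% over the 8 samples. These 234 promoters, of 233 genes, are described here. A promoter was the window from 1000 bases upstream to 100 bases downstream of a RefSeq start site. It was tested when at least 10 of its cytosines were in the table, and its level was the unweighted mean over those cytosines. The members were chosen by their measured level in all 8 samples, so that high level is a description and not a result. The cells were isolated from F1 males of the C3H/HeN strain at postnatal day 6 with an antibody to CD49f. The dams of the arsenic group had drunk water containing 85 ppm sodium arsenite on gestational days 8 to 18, and those of the control group tap water. There were 4 samples in a group, each of them made from the pooled testes (8 in all) of 4 mice. No litter was named for a pool of this stage, so p-values of promoters measure the spread between pools. Those of single cytosines came from pooled counts and do not measure that spread.

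DNA methylation in mammals sits mainly on the cytosine of CpG dinucleotides. Most promoters lie in CpG-rich sequence that stays unmethylated whether or not the gene is used, whereas CpG-poor promoters are often methylated in cells that do not use the gene. A small group of CpG-rich promoters is known to break this pattern: those of germ line genes such as Dazl and Ddx4, which are methylated in somatic cells and lose methylation in germ cells before birth. RRBS reads fragments that start at CCGG sites, so it samples CpG-rich sequence more densely than CpG-poor sequence.

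The upstream sequences of 5 members show the kinds of promoter in the set. They are the 250 bases before the start site in GRCm38 (RefSeq, C57BL/6J strain), read in the direction of the gene, with the CpGs that were in the table in capitals. Slc25a31 (chr3:40708621-40708870, plus strand) and D1Pas1 (chr1:186967166-186967415, plus strand) are used in male germ cells, as a mitochondrial ADP/ATP carrier and an RNA helicase of the testis. Fgb (chr3:83049864-83050113, minus strand) encodes the beta chain of fibrinogen, a clotting protein made by the liver. Cd2 (chr3:101287940-101288189, minus strand) encodes an adhesion molecule of T cells. Arrdc5 (chr17:56300287-56300536, minus strand), a member of the arrestin-domain family, was the promoter with the largest gap between the groups among those whose samples did not overlap.
Slc25a31: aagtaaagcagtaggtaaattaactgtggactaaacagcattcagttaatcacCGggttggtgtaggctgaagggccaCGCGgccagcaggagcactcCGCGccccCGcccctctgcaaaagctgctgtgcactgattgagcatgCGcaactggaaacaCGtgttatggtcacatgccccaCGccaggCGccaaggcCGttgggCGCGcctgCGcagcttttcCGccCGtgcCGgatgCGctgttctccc
D1Pas1: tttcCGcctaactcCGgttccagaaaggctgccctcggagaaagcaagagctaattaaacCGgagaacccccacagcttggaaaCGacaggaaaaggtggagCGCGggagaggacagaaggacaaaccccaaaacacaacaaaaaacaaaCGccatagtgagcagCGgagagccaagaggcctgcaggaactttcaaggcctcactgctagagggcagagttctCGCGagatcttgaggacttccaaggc
Fgb: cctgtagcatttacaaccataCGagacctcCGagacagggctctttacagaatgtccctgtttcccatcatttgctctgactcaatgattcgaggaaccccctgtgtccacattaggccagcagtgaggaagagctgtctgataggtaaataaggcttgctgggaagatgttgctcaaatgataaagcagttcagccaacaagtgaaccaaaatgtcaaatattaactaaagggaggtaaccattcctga
Cd2: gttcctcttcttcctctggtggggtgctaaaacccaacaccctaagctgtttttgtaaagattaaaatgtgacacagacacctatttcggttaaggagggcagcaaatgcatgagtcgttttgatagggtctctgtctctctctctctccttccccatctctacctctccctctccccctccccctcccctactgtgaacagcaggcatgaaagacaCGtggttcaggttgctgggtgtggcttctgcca
Arrdc5: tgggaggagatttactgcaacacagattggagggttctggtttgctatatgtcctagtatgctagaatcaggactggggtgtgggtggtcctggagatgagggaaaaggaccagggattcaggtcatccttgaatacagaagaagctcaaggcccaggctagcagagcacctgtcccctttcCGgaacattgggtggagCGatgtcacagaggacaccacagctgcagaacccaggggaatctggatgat
The Slc25a31 stretch held 18 CpGs, all of them in the table, with levels from 64.3% to 94.2%. The D1Pas1 stretch held 11, of which 10 were in the table at 68.3% to 92.0%. The Fgb, Cd2 and Arrdc5 stretches held 3, 3 and 2. The only one of these in the table for Cd2 was at 7.61%, while the 16 cytosines farther upstream averaged 88.0%.

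Coverage summed over all cytosines came to 96428439 to 133406260 per library, where a read counts at each cytosine that it covers. The 3913 cytosines of the set were covered by a median of 33 to 49 reads per sample. Summed in the same way over its own cytosines, the coverage of a promoter of the set was 119 to 4371 in a sample, with a median of 761. The SD that read counting alone gives to a promoter's level had a median of 1.49 percentage points over the set. It takes the cytosines of a promoter as independent, and cytosines that share reads can make the true counting error larger. Of the 3913 cytosines, 85.1% had a level of at least 70%, 121 were between 10% and 50%, and 18 were under 10%.

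The levels of the set ranged from just above 70% to 95.4%, with a median of 81.8%. There were 96 promoters at 70 to 80%, 104 at 80 to 90% and 34 at 90% or more. The median over all tested promoters was 1.55%, and 7349 of them were under 10%. Just above the limit lay Akap7 at 70.1%, 1300017J02Rik at 70.4% and Lypd11 at 70.6%. Just below it lay Tm4sf19 at 69.9%, Zfp42 at 69.7% and Lep at 69.5%, so the limit cut through a continuous range rather than a gap. The members were on all 19 autosomes, with 2 to 21 on each. Of the 234 windows, 39 also overlapped another protein-coding gene, and 8 shared cytosines with another member. In 2 pairs, Ctnnd1 and Btbd18 among them, the promoters shared all of their cytosines, so each pair is a single measurement.

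**Figure D1:**
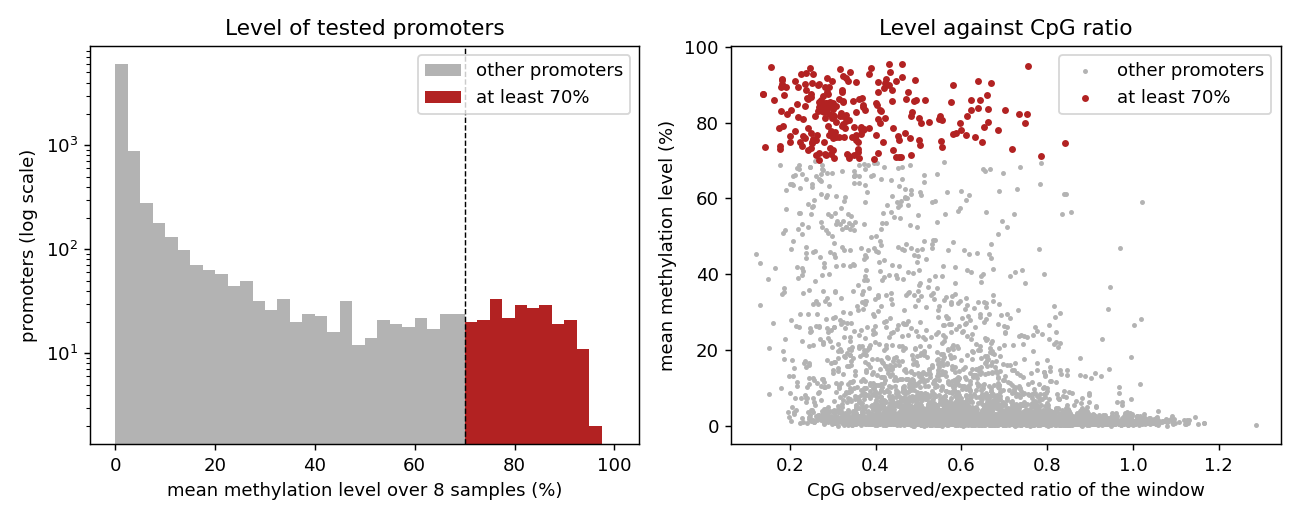
Left, the number of tested promoters (log scale) by mean methylation level over the 8 samples, with the limit of 70% dashed. Right, the level of each promoter against the CpG observed/expected ratio of its window. The 234 promoters at 70% or more (red) lie mostly at ratios below those of the other promoters (grey), with a median of 0.33 against 0.64 over all tested promoters.

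The set was poor in CpGs. A window of the set held a median of 22 CpGs in the reference, and the median of all tested promoters was 50. The CpG observed/expected ratio, which compares the number of CpGs with that expected from the C and G content, had a median of 0.33 in the set and 0.64 over all tested promoters. GC content was 49.9% and 54.4%. Members also had fewer measured cytosines, with a median of 15 against 24, and fewer CCGG sites, with a median of 3 against 6. Among promoters with 10 to 14 measured cytosines 6.74% were in the set, and among those with 40 to 59 the share was 0.149%. By CpG class, 121 members were low, 93 intermediate and 20 high, where high means a stretch of 500 bases with a ratio above 0.75 and a GC content above 55%, and low means no stretch reaching a ratio of 0.48. The set took in 22.7% of all tested low-class promoters, 2.97% of the intermediate and 0.415% of the high ones. Soft-masked repeat sequence covered a median of 15.8% of a member's window and 10.8% of a tested window. Promoters with fewer than 10 measured cytosines were not tested, so any methylated ones among them, CpG-poor or not, were not seen by the rule.

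Along the window the level was nearly flat. In bins of 100 bases the control mean ran from 79.9% ± 1.47 (SD, n = 4) in the 100 bases just upstream of the start site to 82.9% ± 1.06 in the 100 bases downstream. The arsenic means in these bins were 79.6% ± 0.562 and 82.9% ± 0.350 (SD, n = 4). Of the 234 promoters, 64 had no measured cytosine from 300 bases upstream to 100 bases downstream of the start site, and their level describes only the farther part of the window. Of the 156 with at least 3 cytosines there, 140 were at 70% or more in that part, with a median of 82.2%. In the 79 promoters with at least 3 cytosines on either side of that boundary, the farther part was higher in 42, and the median difference was 0.83 points.

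**Figure D2:**
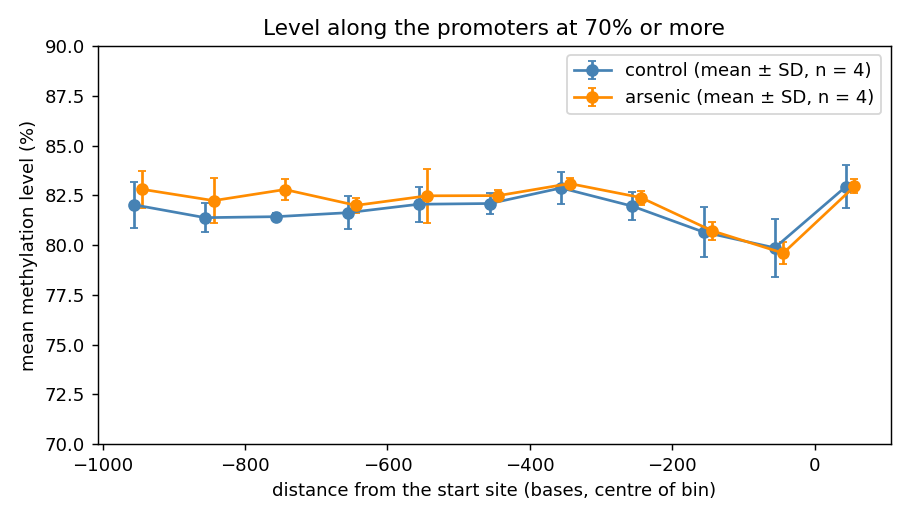
Mean methylation level of the cytosines of the 234 promoters (y axis, %, drawn from 70 to 90) by distance from the start site in bins of 100 bases (x axis). Points and bars are the mean and SD of 4 control (blue) and 4 arsenic (orange) samples. Every bin lies between 79.6% and 83.1% in either group.

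A start site in the set did not mean that all start sites of the gene were methylated. For 40 of the 234 promoters another window of the same gene had at least 3 cytosines, and in 23 of them the lowest other window was under 10%. Pde4a, a phosphodiesterase that breaks down cyclic AMP, was at 89.5% in the member window and at 0.605% in the other. Itga3, an integrin subunit, was at 91.1% and 1.7%. Chd7, a chromatin remodeller, was at 88.5% and 2.3%. Trp73, a transcription factor related to p53, was at 83.2% and 2.2%. In 5 of the 40 every other measured window was at 70% or more.

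Germ line genes stood out by their CpG content. Of a list of 22 germ line genes known for promoters that are methylated in somatic cells, 11 promoters were tested, 8 of them were in the set and none was under 10%. Dazl, an RNA-binding protein that germ cells need, was at 95.2%, 95.8%, 96.5% and 99.1% in control samples 1 to 4 and at 95.5%, 89.2%, 93.7% and 94.2% in arsenic samples 1 to 4. Ddx4, the germ cell RNA helicase also called Vasa, was at 81.1%, 87.9%, 77.8% and 84.6% in the control samples and at 81.3%, 79.5%, 73.6% and 76.0% in the arsenic samples. Sycp1, a protein of the synaptonemal complex that joins paired chromosomes in meiosis, was at 84.8%, 83.9%, 86.8% and 88.6%, and at 80.3%, 90.7%, 82.4% and 86.3%. The groups overlapped at each of these. The means over the 8 samples were 80.9% at Hormad1, a protein of the meiotic chromosome axis, 78.7% at Mael, which acts in transposon silencing, and 85.6% at Tex101, a surface protein of male germ cells. Rpl10l, a testis ribosomal protein, was at 91.1% and Slc25a31 at 87.2%. The other tested promoters of the list were Piwil2 at 68.9%, Tdrd1 at 60.7% and Hormad2 at 54.0%.

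These levels go against the cell type label, since germ line genes of this kind are known to be unmethylated in spermatogonia. Other marker lists were read beside them. The 8 tested promoters of genes used in type A spermatogonia, with separate windows of Etv5 among them, were at 0.98% to 4.56%. Of all 8477 tested promoters 7349 were under 10%, so a low level in this list or the Sertoli list does not tell cell types apart. Of 12 tested promoters of maternally imprinted genes, whose methylation is known to be erased in male germ cells, 10 were at 38.0% to 61.99%, a window of Inpp5f was at 15.2% and Grb10 was at 1.47%. The 8 tested promoters of Sertoli cell genes ranged from 0.99% to 28.2%, and no promoter of the Leydig cell list was tested. The list means per sample ran from 76.6% to 81.8% for the germ line genes, from 42.2% to 51.8% for the imprinted genes and from 6.07% to 7.11% for the Sertoli genes. The type A list was at 2.15%, 2.87%, 2.30% and 2.84% in the control samples and at 1.31%, 1.49%, 1.28% and 1.19% in the arsenic samples. Its groups did not overlap, but the means of control samples 2 and 3 rest in large part on Kit. Kit was at 10.6% and 10.4% in those samples and at 0.14% to 0.66% in all the others. This difference of the list was not tested. The study found Itga6 and Gfra1 RNA higher in this fraction than in the one it isolated from fetal testes. Its methylation profiles also clustered by stage. Neither comparison gives the share of germ cells in a pool. The cell makeup of the pools was not tested, and the set is named here by its level.

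The germ line members extended beyond that list. Going by known function, assigned after the values had been seen and only where it was sure, 41 members were germ line genes. They had a median of 32 CpGs and a ratio of 0.47, against 21 and 0.31 in the other 193, and they made up 10 of the 20 high-class members. The list of piRNA and Tudor proteins, which silence transposons through small RNAs, had 13 tested promoters, of which 6 were in the set and 4 were under 10%. Fkbp6, a co-chaperone of that pathway, was the highest at 90.4% with 35 cytosines. Henmt1, the methyltransferase of piRNA ends, was at 78.1%, Pnldc1, which trims them, at 80.6% and Rnf17, a Tudor protein, at 81.1%. The list of meiosis proteins had 20 tested promoters, with 8 in the set and 6 under 10%. Its member with the most cytosines was Msh4, a protein of meiotic crossovers, at 77.0% over 34 cytosines. Spata22, which acts in meiotic recombination, was at 77.3% and Sycp2, a partner of Sycp1, at 80.02%. The promoters of Prdm9 at 0.21% and Hfm1 at 0.48%, likewise meiosis genes, show that the list was not methylated as a whole. Other germ line lists were mostly unmethylated. Of 65 tested promoters of spermatid and sperm proteins, 4 were in the set and 48 were under 10%. Of 11 for oocyte and early embryo proteins, 2 were in the set and 7 were under 10%. H2ac1, a testis histone, was at 90.9%, Ctcfl, the testis paralogue of Ctcf, at 80.4%, and Dnmt3l, the cofactor of the de novo DNA methyltransferases, at 77.4%, with all of its measured cytosines more than 300 bases upstream.

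**Figure D3:**
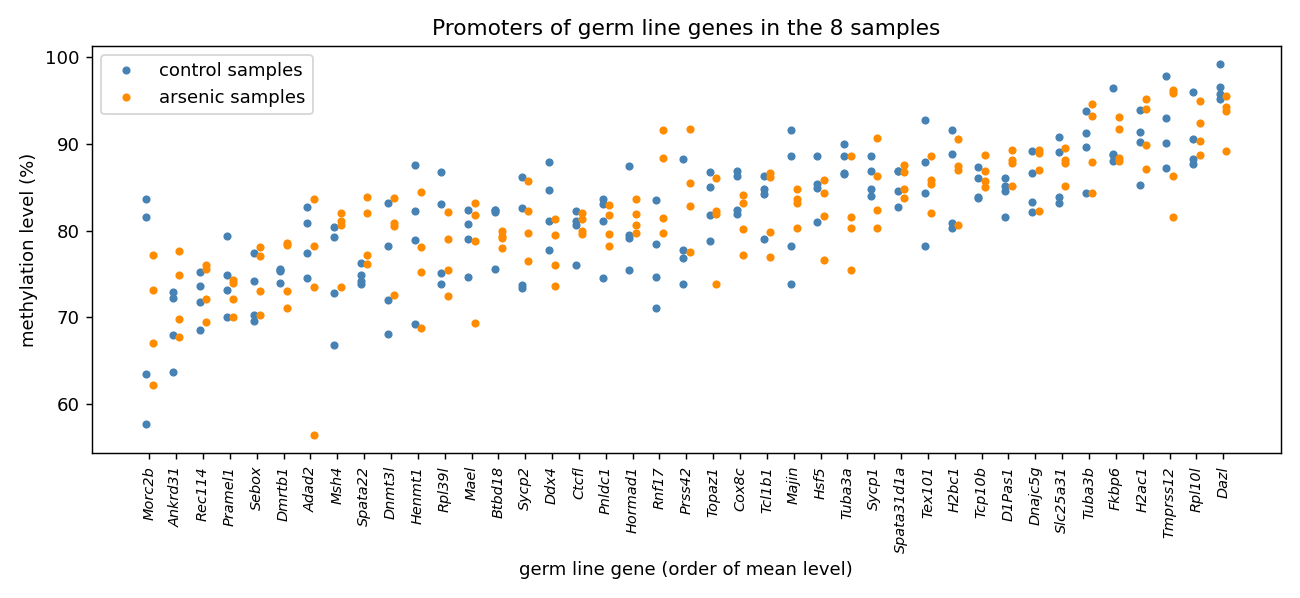
Methylation level (y axis, %) of the 41 germ line promoters of the set, in order of their mean. Each point is a sample, control in blue and arsenic in orange. The points of the 2 groups overlap at every gene, and Morc2b, Adad2, Henmt1 and Rnf17 have the widest spread.

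The hexamer CACGTG, the E-box bound by several helix-loop-helix factors, was found on either strand in the windows of 17 of the 41 germ line members (41.5%) and 38 of the other 193 members (19.7%). Over all tested windows its share was 23.2%. TCCCGC, found in binding sites of E2F factors, was in 20 of the 41 windows (48.8%) and in 45 of the 193 (23.3%), with a share of 61.0% over all tested windows. It was in 72.9% of all tested high-class and 27.0% of low-class windows, whereas for CACGTG these shares were 24.5% and 21.6%. TGACGTCA, the cyclic AMP response element, was in 0 of the 41 windows, in 6 of the 193 (3.11%) and in 4.79% of all tested windows. A match describes the letters of a window and not a bound site, and these shares were not tested.

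Genes of other tissues made up most of the members with an assigned role. Of 97 such members, 41 were germ line, 15 were genes of nerve and sense organs, 14 of liver, gut and kidney, 12 of blood and immune cells, 9 of muscle and heart and 6 of skin, hair, cartilage and bone. The remaining 137 were not assigned. None of the 56 genes outside the germ line had a high-class promoter. Among leukocyte surface molecules 5 of 26 tested promoters were in the set and 15 were under 10%. Cd2 was at 83.3% over 17 cytosines and Cd80, a costimulatory molecule, at 76.1% over 15. Zap70, a kinase of the T cell receptor, was at 79.2%. Among muscle proteins 3 of 21 were in the set, and Tnni2, troponin I of fast muscle, was at 77.7% and Myl1, a myosin light chain, at 76.2%. Nebulin, encoded by Neb, was at 88.1%. Fgb was at 84.4% and Mup21, a major urinary protein of the liver, at 81.4%.

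Serine proteases had 4 members among 11 tested promoters. Tmprss3 was at 84.0% over 22 cytosines, and Klkb1, plasma prekallikrein, was at 90.04% over 13. Solute carriers had 5 of 160 and ion channels 5 of 91. Besides Slc25a31, the solute carrier with the most cytosines was Slc30a3, a zinc transporter of synaptic vesicles, at 86.5% over 23 cytosines that it shares with its neighbour Dnajc5g. Clcn7, a lysosomal chloride transporter, was at 87.6%, with all of its measured cytosines more than 300 bases upstream. Over all tested promoters the share in the set was 2.76%, so a family with few tested promoters would seldom have a member. None of 70 homeobox and T-box promoters, 37 neurotransmitter receptor promoters and 24 cytokine or chemokine receptor promoters reached 70%, and 2 of 178 zinc finger promoters did. Olfactory receptors had 2 of 4, Olfr1394 at 83.8% and Olfr281 at 78.9%, and keratins 2 of 7, but few promoters of these families reached 10 cytosines.

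The 5 members with the most cytosines were 4933428G20Rik with 68 at 74.5%, Rad51c with 57 at 76.8%, Slc25a31 with 41, Fam174c with 37 at 75.3% and H2ac1 with 37. Rad51c, a recombination protein, is used in all dividing cells. Its member window overlaps Tex14, a gene of male germ cells, and stood at 85.9% beyond 300 bases upstream and at 68.6% nearer to the start site. 4933428G20Rik overlaps Arhgap23, and Fam174c overlaps Cirbp.

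The spread between samples differed among the members. The SD over the 8 samples had a median of 2.82 points, against 1.49 from counting. It was at least as large as the counting SD in 222 of the 234 promoters. The counting SD takes cytosines as independent, so shared reads can make this excess look larger than it is. Germ line members had more cytosines, a median of 20 against 14 in the others. The SD over the samples had a median of 3.70 in the 41 germ line members and 2.64 in the other 193, where the counting SD was 1.45 and 1.5. Of the 25 members with an SD above 5 points, 12 were germ line genes. The widest was Morc2b, a germ cell gene, with 57.7%, 63.5%, 83.7% and 81.5% in the control samples and 67.1%, 62.1%, 77.1% and 73.2% in the arsenic samples. Sap25, a subunit of a Sin3 corepressor complex, had 66.5%, 71.4%, 74.7% and 89.2%, and 89.1%, 86.4%, 85.4% and 74.0%. Adad2, a germ cell RNA-binding protein, had 74.5%, 80.9%, 77.4% and 82.8%, and 56.5%, 83.7%, 78.3% and 73.5%. At each of these the groups overlapped, and the high and low samples were not those of a single group. The mean over the 41 germ line members was 79.7% and 80.7% in control samples 1 and 2 and 83.8% and 83.3% in control samples 3 and 4. In the arsenic samples it was 81.2% to 82.6%. In control sample 1, 28 of the 41 lay below their own mean over the samples, and in control sample 3, 10 did. The other 193 members averaged 81.3% to 82.3% in every sample. The imprinted list was at 44.2%, 43.4%, 51.8% and 46.4% in the control samples and at 44.4%, 42.2%, 47.9% and 48.6% in the arsenic samples. The part of cell makeup in this spread was not tested.

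**Figure D4:**
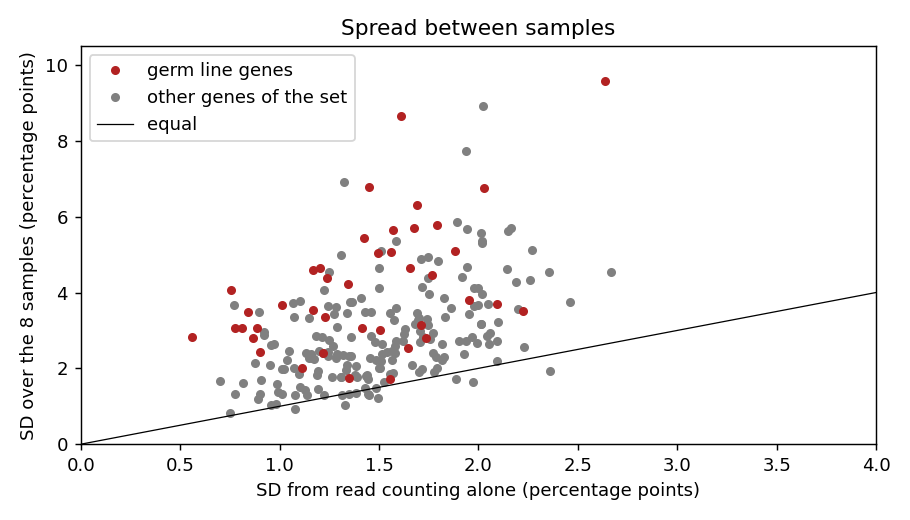
SD of each member's level over the 8 samples (y axis, percentage points) against the SD expected from read counting alone with cytosines taken as independent (x axis). Germ line genes are red, the other members grey, and the line marks equality. Nearly all points lie above the line, and the germ line genes have a median of 3.70 points on the y axis against 2.64 for the rest.

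Gestational arsenic exposure was compared with control at each promoter, a contrast that the rule did not use. The average level over the 234 promoters was 81.8% ± 0.707 in the control samples and 82.0% ± 0.229 in the arsenic samples (SD, n = 4). The single samples were at 81.1%, 81.2%, 82.6% and 82.2%, and at 82.1%, 81.7%, 82.2% and 81.9%, so the groups overlapped, with a difference of 0.18 points that lies within 1 SD of the control samples. The median difference of a promoter was 0.16 points, beside -0.05 over all tested promoters, with 120 members higher and 114 lower in the arsenic group. The differences ran from -8.82 to 8.37 points. In 218 of the 234 the difference was under 5 points.

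No promoter passed the test, in the set or elsewhere. The test was a logistic regression of the summed counts with overdispersion scaling, and a call needed a difference of 10 points or more with a Benjamini-Hochberg q no higher than 0.01. It called 0% of all 8477 promoters, and the lowest q was 0.848. At an unadjusted p under 0.05 there were 15 members, or 6.41%, against 5.05% of all tested promoters. limma on log2 ratios also called none, with a lowest q of 0.522 over all promoters and 2 members at an unadjusted p under 0.05.

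In 5 members, or 2.14%, all 4 arsenic levels were lower than the lowest control level, beside 1.82% of all tested promoters. In none were all 4 arsenic levels higher than the highest control level, beside 1.27% of all tested promoters. Both counts are small. The lower ones included Arrdc5, Bak1, Ccdc27 and Pde6c. Arrdc5 (chr17:56300186-56301286) was at 88.8%, 90.3%, 89.2% and 89.1%, and at 87.9%, 81.4%, 85.6% and 81.7%, with means of 89.3% ± 0.684 and 84.2% ± 3.16 (SD, n = 4). Ccdc27 (chr4:154042577-154043677), a coiled-coil protein, was at 86.5%, 84.9%, 84.8% and 88.9%, and at 81.9%, 82.0%, 84.5% and 83.8%. Pde6c, the cone phosphodiesterase, had means of 79.1% and 76.4%, and Bak1, a cell death protein, of 85.3% and 82.1%. The two-sided exact permutation test gives such a promoter p = 0.0286, the smallest that 4 samples against 4 allow, and over 8477 promoters this does not survive adjustment.

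**Figure D5:**
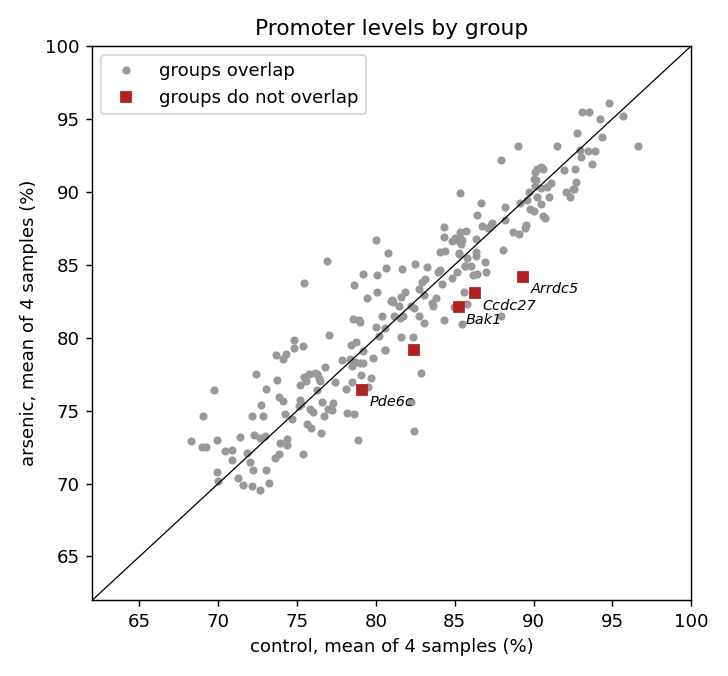
Mean methylation level of each of the 234 promoters in the 4 arsenic samples (y axis, %) against that in the 4 control samples (x axis, %), both drawn from 62 to 100, with the line of equality. Red squares mark the 5 promoters whose groups do not overlap, 4 of them with their names, all below the line by 2.7 to 5.2 points.

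Single cytosines were tested by logistic regression on pooled counts with the thresholds of the study, though not with its software. A differentially methylated cytosine (DMC) had a q of at most 0.01 and a difference of at least 10 points. Over all cytosines 6885 DMCs were lower and 4867 higher in the arsenic group, close to the study's counts but not the same. The set held 41 DMCs among its 3913 cytosines, or 1.05%, in 33 promoters. Of all 2130064 cytosines 0.552% were DMCs, and of the cytosines of all tested promoters, most of which are unmethylated, 0.197%. When only cytosines at 10% to 90% were counted, which can differ by 10 points more easily, the shares were 1.33% in the set and 0.916% over all. The 41 were 14 hypoDMCs and 27 hyperDMCs, so 65.9% were higher in the arsenic group, against 41.4% of all DMCs. Without the promoter that held 7 of the hyperDMCs, an exclusion chosen after seeing the data, there were 14 and 20. These shares are a description, with no test. Pooled counts carry no spread between samples. In 14 of the 41 the groups did not overlap, and 7 of those lay within 1 promoter. The share without overlap over all DMCs was not counted, so 14 cannot be called few or many.

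That promoter was 1700034I23Rik (chr3:40902401-40903501), which overlaps Abhd18. Its 7 hyperDMCs lay on the plus strand between 40902442 and 40902517, with differences of 14.7 to 17.1 points and 26 to 52 reads each. Their coverages were nearly equal within a sample, so they share reads and are not independent sites. Over the whole window of 29 cytosines the levels were 79.5%, 75.9%, 84.0% and 80.7% in the control samples and 83.6%, 86.9%, 86.3% and 90.1% in the arsenic samples. The means were 80.01% ± 3.34 and 86.7% ± 2.66 (SD, n = 4), and the groups overlapped, since control sample 3 was above arsenic sample 1.

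Outside it, the hyperDMCs of largest difference without overlap were in Rnf17, Tnni2 and Ccl22. The cytosine of Rnf17 was at 58.6%, 46.2%, 38.1% and 60% in the control samples and at 75%, 61.1%, 87.5% and 65.5% in the arsenic samples, with 16 to 48 reads. That of Tnni2 was at 35.4%, 60.8%, 57.3% and 45%, and at 69.6%, 73.0%, 75.9% and 71.4%. The one in Ccl22, which encodes a chemokine, had means of 69.4% ± 10.9 and 89.1% ± 4.69 (SD, n = 4). Among hypoDMCs only Trp73 and Tuba3a had sites without overlap. The Trp73 site was at 100%, 95.6%, 91.3% and 94.9% in the control samples and at 83.7%, 72.7%, 57.9% and 79.7% in the arsenic samples. The Tuba3a site, in a tubulin gene of the testis, was at 100% in every control sample and at 82.4%, 90%, 85.7% and 85% in the arsenic samples, with 12 to 40 reads. Over the whole windows the groups overlapped at all 5 of these genes.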

How the data were processed

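The authors prepared RRBS libraries from 4 control and 4 arsenic samples, trimmed reads with Trim Galore 0.6.5, mapped them to mm10 with Bismark 0.22.3 and joined samples with methylKit 1.22.0 (versions from the submitters' processing notes). The deposited counts give covering, methylated and unmethylated reads per cytosine, strands separate, without normalization. The lowest coverage was 10. Samples were grouped by label. Exposure, age and pooling come from the study's methods.

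Cytosines on chromosomes 1 to 19, X and Y were used. Of these, 99.98% were followed by G in GRCm38. Start sites came from curated RefSeq transcripts. Overlapping windows of a gene were reduced to the one with most cytosines, leaving 22402 windows, of which 8477 were tested. The mice were C3H/HeN and the reference C57BL/6J, so a strain difference from C to T reads as unmethylated. Intervals and counting SDs cover counting error only, and PCR duplicates were not distinguishable. Counting SDs also take cytosines as independent, which those on the same reads are not.

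Counts summed per promoter were tested with a logistic model, scaled for overdispersion (F test), and single cytosines by a likelihood-ratio test on pooled counts, with Benjamini-Hochberg adjustment over all features. methylKit was not rerun. limma 3.58.1 (R 4.3.3, pseudocount of 1) and a replicate block were alternatives. Scripts (Python 3.11.15 with scipy 1.17.1, numpy 2.4.6, matplotlib 3.10.9, pandas 2.3.3) were tested on simulated data. Same-numbered samples did not deviate together (correlations of -0.001 to 0.011 over promoters), so the numbers were not taken as pairs, and no samples held identical counts.

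Members and lists were chosen with earlier results of these data known. The 27 family patterns were corrected, and tissue roles assigned, after values were seen. Named were germ line list members, the 2 members with most cytosines per family of at least 3, non-overlapping promoters and DMCs with the lowest p or largest difference, the 5 with most cytosines, the 3 of widest spread and the 3 on either side of 70%. All other genes named were chosen after their values were seen. Some promoters that this rule names are not reported here.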

Additional observations from a re-analysis of the deposited data

Results flagged for a closer look

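For the named promoters and the average level, 68 groups of 4 samples were examined for a sample far from the other 3, by Dixon's gap, which marks about 1 group in 20 by chance, or 3.4 groups. It marked 5. 4933428G20Rik was at 67.4% in control sample 1 and at 75.9% to 77.4% in the other control samples. Clcn7 was at 89.8% in control sample 4 and at 86.3% to 86.8% in the others. Fkbp6 was at 96.4% in control sample 3 and at 88.0% to 88.8% in the others. Myl1 was at 79.3% in control sample 1 and at 71.3% to 72.5% in the others. Msh4 was at 73.4% in arsenic sample 2 and at 80.6% to 82.0% in the other arsenic samples.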

How the results depend on the processing

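The set held 150 promoters when each cytosine needed 20 reads in all samples, 63 with at least 20 cytosines and 138 at a level of at least 80%. Without overdispersion scaling 1 member, Fam178b, was called lower, at -11.27 points, and 94 members had an unadjusted p under 0.05, against 2 by limma. Overdispersion scaling of single cytosines left 0 hypoDMCs and 0 hyperDMCs, but so few samples can hardly pass adjustment over all cytosines, so this says nothing about stability. The replicate block called 0 promoters and left 10 hypoDMCs and 22 hyperDMCs. Its promoter fit has few residual degrees of freedom, and it changed no other call.

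Members whose groups do not overlap numbered 3 lower and 3 higher at coverage of at least 20, and 0 lower with at least 20 cytosines. By coverage-weighted levels there were 6 lower and 5 higher. Shares over all tested promoters were not counted at these settings, nor with a sample left out. Leaving out 1 sample gave 6 to 10 lower and 2 to 8 higher, where 3 samples against 4 overlap less readily by construction. It gave 0 called promoters, 10 to 17 hypoDMCs, 19 to 34 hyperDMCs and an average difference of -0.03 to 0.44 points. The average difference was 0.71 points with at least 20 cytosines. Chosen after seeing the data, leaving out 1700034I23Rik gave 14 hypoDMCs and 20 hyperDMCs, and cytosines within 300 bases upstream gave -0.04 points. Depth limits single sites with few reads more than promoter means.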
